A study of Homo sapiens with 8 samples.

Results

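The FKBP5 locus was taken as chromosome 6 from 35491000 to 35747000 in the build hg19, a window of 256 kb that holds the gene with 50 kb on each side. A region was a member where it overlapped this window by at least 1 bp. That gave 98 of the 224950 regions listed in the series. The progesterone receptor (PR) had 0 sites there in unstimulated cells, and the progestin R5020 gave 11 sites after 5 min, then 16 (30 min), 22 (60 min) and 25 (360 min). In unstimulated cells there were also 13 regions of histone H3 monomethylated at lysine 4 (H3K4me1), 6 of H3 trimethylated at lysine 4 (H3K4me3) and 5 of RNA polymerase II. FKBP5 is on the minus strand, so that a higher coordinate lies further upstream. Distances below are measured from position 35696000, a round figure near the upstream promoter, and a plus sign means downstream, into the gene.

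The cells were T47D-MTVL, a human luminal breast cancer line with an integrated reporter driven by the mouse mammary tumour virus promoter, which steroid hormones activate. They were kept in charcoal-treated serum and then without serum, so that steroid was scarce, before 10 nM R5020 was added for 5, 30, 60 or 360 min. Unstimulated cells got no hormone. PR was precipitated with a single antibody at all 5 times, and H3K4me1, H3K4me3 and RNA polymerase II were precipitated from unstimulated cells only. Every group held 1 library, the files give no read depth or peak height, and no p-value between groups could be computed. Intervals in brackets are exact 95% binomial intervals over sites. They cover counting error only, and neighbouring sites are not independent.

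FKBP5 encodes FKBP51, a peptidyl-prolyl isomerase that works as a co-chaperone of HSP90 in steroid receptor complexes. In glucocorticoid receptor complexes FKBP51 lowers the affinity for hormone. Receptors for glucocorticoids, androgens and progestins in turn raise transcription of FKBP5, which makes the gene part of a feedback loop and a standard marker of their activity. These receptors share a DNA element of paired arms, and FKBP5 is known for response elements far from its promoter, inside introns and upstream. The files hold no RNA values, so none of the data below bears on the level of FKBP5 transcript.

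Sequence at the FKBP5 promoters is shown because PR, H3K4me3 and RNA polymerase II were all listed near them. RefSeq gives 2 start sites for FKBP5 in GRCh38.p14, 39668 bases apart. Each stretch runs from 250 bases before to 50 bases after a start, read 5′ to 3′ on the minus strand, with matches to the element arm TGTTCT or its reverse complement AGAACA in capitals. The upstream start was printed from chr6:35728534-35728833 and the downstream start from chr6:35688866-35689165, both GRCh38.p14 positions that were not converted to hg19.
upstream start: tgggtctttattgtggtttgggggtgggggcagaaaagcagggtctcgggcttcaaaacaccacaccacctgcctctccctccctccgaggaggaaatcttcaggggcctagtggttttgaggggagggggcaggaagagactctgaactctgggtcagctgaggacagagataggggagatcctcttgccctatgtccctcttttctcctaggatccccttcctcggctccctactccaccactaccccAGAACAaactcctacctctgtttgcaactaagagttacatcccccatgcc
downstream start: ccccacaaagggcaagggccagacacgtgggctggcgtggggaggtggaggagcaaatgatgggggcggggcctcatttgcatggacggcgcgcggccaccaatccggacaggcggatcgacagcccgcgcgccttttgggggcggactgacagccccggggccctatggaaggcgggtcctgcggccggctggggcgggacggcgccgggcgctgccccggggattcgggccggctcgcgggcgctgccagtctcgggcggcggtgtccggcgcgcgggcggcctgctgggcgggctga

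The stretches differed in composition. The downstream one was 76.0% G or C with 38 CG pairs, and the upstream one was 55.7% G or C with 3 CG pairs, against a median of 58.7% and 14 CG pairs over 35116 RefSeq promoters of the same length. The arm matched once, on the upstream stretch, beginning at position 251 of 300 counted from its 5′ end, which is the start site itself. Of all promoters, 14.8% hold TGTTCT or AGAACA. The core of the paired element, ACANNNTGT, which is its own reverse complement, matched in neither stretch and is in 5.37% of all promoters. These are descriptions of letters in short windows. The sequences of the PR sites themselves were not analysed here, since no hg19 genome was used.

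The chromatin lists placed promoter marks of unstimulated cells at 3 places along the gene and its upstream flank. H3K4me3 regions closer than 100 bp were joined into stretches. The first stretch, from 35655412 to 35656701, and the next, from 35695322 to 35695852, had centres 39530.5 bp apart, close to the 39668 bases between the RefSeq starts. On this spacing alone, since positions were not converted between builds, the stretch from 35655412 is called the downstream start below. Another stretch from 35699202 to 35700391 lay upstream of position 35696000, on the side where RefSeq places ARMC12, the next protein-coding gene. At these 3 places RNA polymerase II was listed as well. Its regions ran from 35655435 to 35656322 and from 35656342 to 35656796, then from 35694688 to 35696216, and then from 35699258 to 35699579 and from 35699693 to 35700455. The polymerase region from 35694688 to 35696216 was 1528 bp wide, a width reached by 4.44% of polymerase regions in the whole list. The last H3K4me3 region, from 35744151 to 35744886, had neither polymerase nor PR listed on it.

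H3K4me1, which marks enhancers and the shoulders of promoters, covered 43.3 kb of the window (16.9%), against 7.64% of the genome. Of the 5 widest regions, 4 lay at the upstream promoter or further upstream. The widest block ran for 16518 bp from 35689849 to 35706367, across the upstream promoter, and only 1.24% of all H3K4me1 regions are as wide. It is called the promoter block here. Next by width within the list of the window were regions from 35743285 to 35758162 (14877 bp, crossing the window's edge), 35721018 to 35727054 (6036 bp), 35730983 to 35734134 (3151 bp) and 35655245 to 35658081 (2836 bp), the last over the downstream start. Downstream of the region from 35622153 to 35623040, H3K4me1 was not listed again within the gene.

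**Figure D1:**
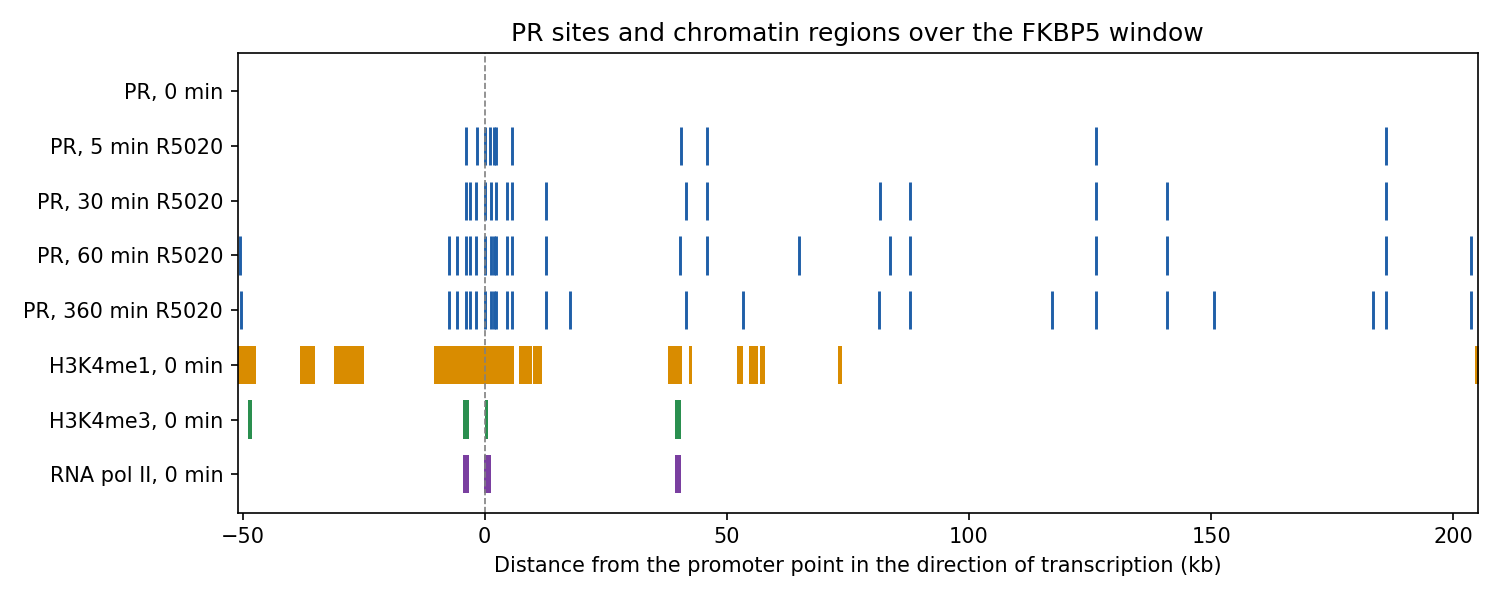
Map of the FKBP5 window with distance from position 35696000, the promoter point, in kb on the x axis, upstream to the left, and a row for each list. PR sites are ticks at their midpoints and chromatin regions are bars to scale. The 0 min row is empty, ticks crowd over the widest H3K4me1 bar, and no tick beyond +60 kb lies on an H3K4me1 bar.

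No PR site was listed at the locus before hormone, and 5 min of R5020 gave 11. The number in the window was larger in each later list (16, 22 and 25), whereas the whole lists of 5, 30, 60 and 360 min held 22973, 25872, 24436 and 23841 sites. The window's share of the 5 min list was 0.0479% (0.0239 to 0.0857%) and of the 30 min list 0.0618% (0.0354 to 0.1%). It held 0.0900% (0.0564 to 0.136%) of the 60 min list and 0.105% (0.0679 to 0.155%) of the 360 min list. Neighbouring intervals overlap, and those of 5 min and 360 min overlap too. The order also depended on the sites taken. With only the wider 50% of each list, the window held 6, 10, 8 and 13 sites at 5, 30, 60 and 360 min.

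PR sites lay closer together here than over the genome as a whole, with a median distance to the nearest 60 min site of 2507 bp, against 11803 bp. At 60 min the window had 85.9 sites per Mb against 8.05 over the genome, 10.7 times as many. When the sites in H3K4me1 alone were counted, per Mb of H3K4me1 region, the window had 5.9 times as many as the genome, a measure chosen after seeing the data. The genome was also cut into 11869 windows of 256 kb, in which the median number of 60 min sites was 1. In that tiling 16 windows (0.135%) held 22 or more 60 min sites, and 5 (0.0421%) held 25 or more 360 min sites. At 5 min the window was less extreme, as 247 windows (2.08%) held 11 or more. The tiled windows have arbitrary edges while the locus is centred on its gene, and the locus was picked with results of these data known, so these ranks are descriptions. At 60 min 11 of the 22 sites had another site within 2 kb, against 24.5% of all 60 min sites.

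**Figure D2:**
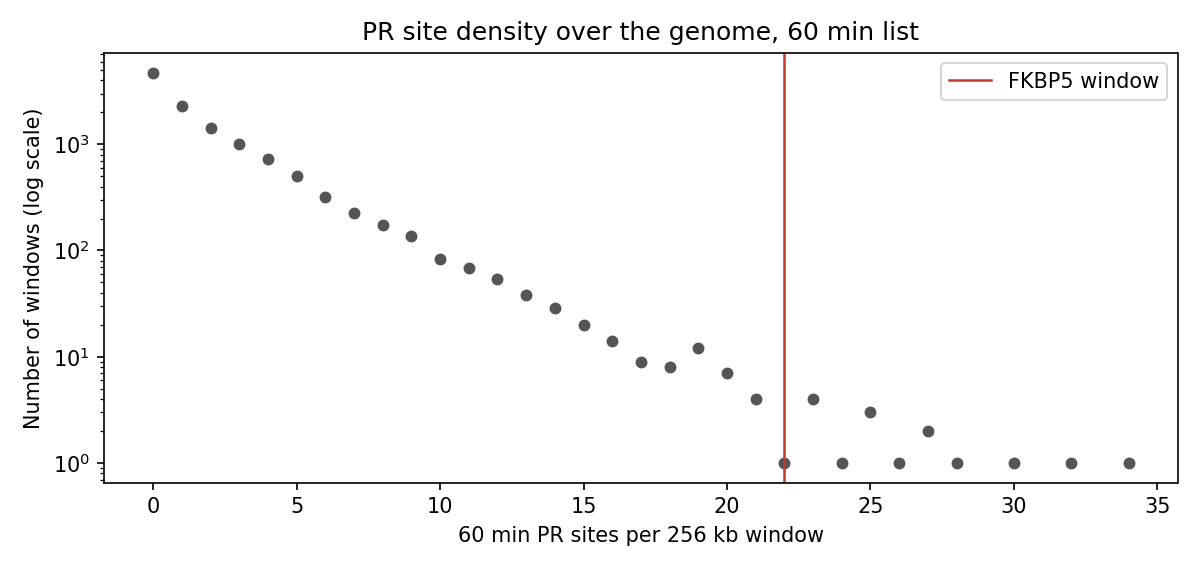
Number of 60 min PR sites per 256 kb window (x axis) against the number of genome windows with that many sites (y axis, log scale). The red line stands at the 22 sites of the FKBP5 window, which 16 of the 11869 windows reach.

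Merging overlapping sites of the 5 lists gave 29 places in the window where PR was listed. Of these, 8 were listed at all 4 times with hormone, which is 27.6% (12.7 to 47.2%), against 22.8% of the 43784 merged sites of the genome. Another 7 were listed at 1 time alone, which is 24.1% (10.3 to 43.5%), against 43.2%. The single-time sites of the window were from 360 min (5 sites) and 60 min (2 sites), and none was from 5 min or 30 min. Sites of 360 min alone were 17.2% of the window's merged sites, against 10.1% over the genome. Those of 60 min alone were 6.9%, against 6.08%. Over the genome 16.8% were listed at 5 min alone and 8.52% at 30 min alone. All 11 of the 5 min sites were also listed at 60 min (71.5 to 100%), against 57.4% of the whole 5 min list. Of the 29 merged sites, 11 (37.9%, 20.7 to 57.7%) appeared first in the 5 min list and 7 (24.1%, 10.3 to 43.5%) in that of 30 min. Another 6 (20.7%, 7.99 to 39.7%) appeared first at 60 min and 5 (17.2%, 5.85 to 35.8%) at 360 min. Over the genome the shares were 52.3%, 26.8%, 10.5% and 10.3% of the 42944 merged sites not listed before hormone. The window's share was lower at 5 and 30 min and higher at 60 and 360 min. Each of its intervals includes the share of the genome.

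The promoter block held 11 of the 29 merged sites, spread over 13273 bp. Every one of these 11 was listed at both 60 min and 360 min, 7 were listed at 5 min and 8 at 30 min. All 4 times with hormone listed 6 of the 11 (54.5%, 23.4 to 83.3%), against 32.7% of the genome's merged sites in H3K4me1. At 60 min the gaps between neighbouring sites ran from 47 to 1832 bp with a median of 839 bp. Among all 73263 H3K4me1 regions, 7 held 11 or more 60 min sites, this one included. The 911 regions at least as wide held a median of 1.

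The site covering position 35696000 was listed from 35695742 to 35696052 at 60 min. It is called the upstream promoter site below, on that position alone, since the RefSeq starts were not converted to hg19. It was 291, 311, 310 and 300 bp wide at 5, 30, 60 and 360 min. This was the member nearest to position 35696000, and it overlapped H3K4me1, H3K4me3 and RNA polymerase II regions. Its near neighbour on the downstream side, from 35694573 to 35695001 at 60 min, was 462, 391, 428 and 355 bp wide at the 4 times and reached into the same polymerase region without touching H3K4me3. At 5 min it was the widest PR site of the window, a width that 8.14% of the 5 min list reaches.

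Further into the gene but still in the promoter block, PR was listed side by side at a pair of places with a gap of 47 bp at 60 min. The larger of the pair, from 35693441 to 35693861, was 435, 404, 420 and 409 bp wide at 5, 30, 60 and 360 min. The smaller, from 35693908 to 35694068, was 186, 160 and 144 bp wide at 5, 60 and 360 min and was not listed at 30 min. Beyond them the site from 35690227 to 35690626 was 326, 387, 399 and 343 bp wide at the 4 times. The site from 35691340 to 35691609 was not listed at 5 min and was 261, 269 and 164 bp wide at 30, 60 and 360 min.

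Upstream of position 35696000 the block held 5 more sites. The site from 35697605 to 35697890 was 388, 341, 285 and 290 bp wide at 5, 30, 60 and 360 min. The one from 35699701 to 35699920 was 210, 294, 219 and 227 bp wide and overlapped all 3 kinds of chromatin region. Between them, the site from 35698827 to 35699119 was not listed at 5 min and was 307, 292 and 281 bp wide at the later times. The outermost sites came last to the lists: those from 35701603 to 35701823 (220 and 195 bp) and from 35703137 to 35703500 (363 and 248 bp) were listed at 60 and 360 min only.

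**Figure D3:**
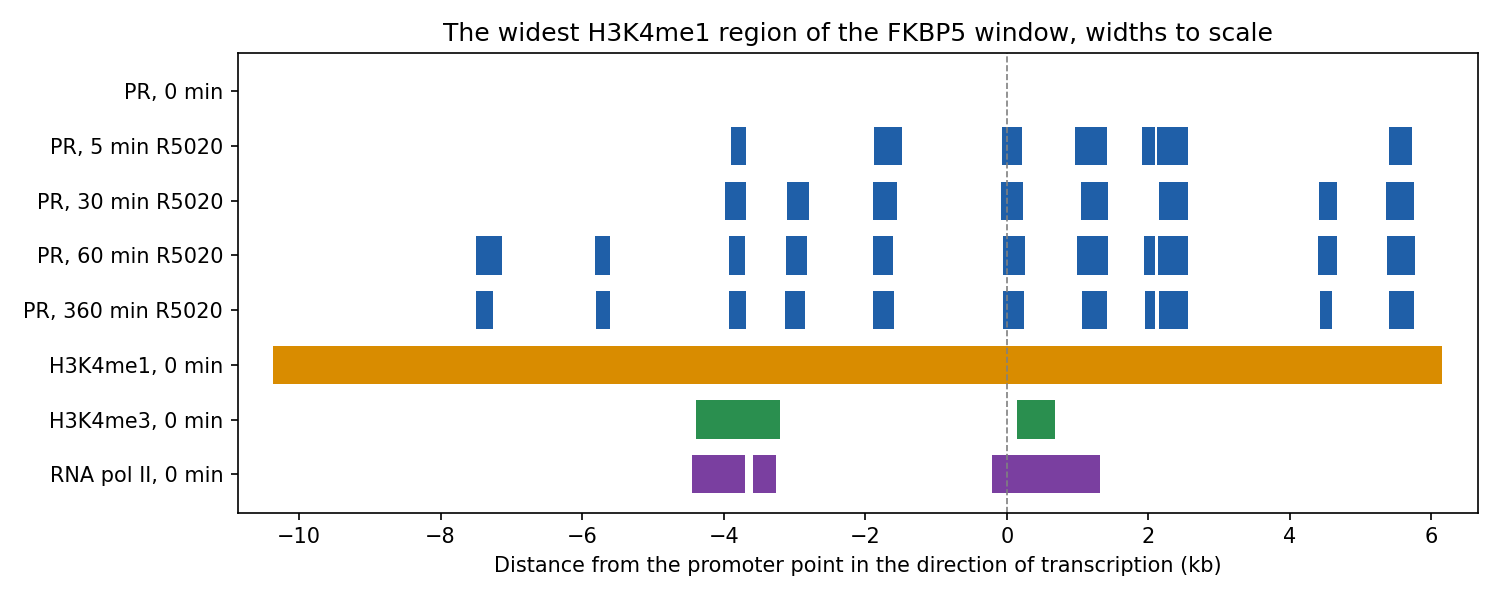
The promoter block at scale, with distance from position 35696000 in kb on the x axis and a row for each list. PR sites and chromatin regions are bars to scale. The 11 sites of 60 min are matched by 11 at 360 min, the outer pair at the left is missing at 5 and 30 min, and both H3K4me3 stretches overlap polymerase bars.

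The rest of the gene held 14 merged sites. All 4 times with hormone listed 1 of them, from 35569732 to 35569980 at 60 min, at +126 kb. It was 245, 278, 248 and 253 bp wide at 5, 30, 60 and 360 min. The 5, 30, 60 and 360 min lists held 3, 7, 8 and 10 of the 14, and 6 were listed at 1 time alone. The shares listed at all 4 times were 54.5% (23.4 to 83.3%) in the promoter block and 7.14% (0.181 to 33.9%) in the rest of the gene. These intervals overlap.

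The widest of these as merged lay at +87.9 kb, from 35607863 to 35608368 at 60 min. It was 451, 505 and 593 bp wide at 30, 60 and 360 min and was not listed at 5 min. At 360 min it was the widest PR site of the window, a width that 1.69% of the 360 min list reaches. No H3K4me1, H3K4me3 or polymerase region overlapped it. Other sites listed from 30 min on were at +141 kb, from 35555064 to 35555295 (264, 231 and 328 bp at 30, 60 and 360 min), and at +12.6 kb, from 35683262 to 35683567 (383, 305 and 278 bp).

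At the downstream start PR was listed at 5 and 60 min only, from 35655425 to 35655938 at 60 min. It was 184 bp wide at 5 min and 513 bp wide at 60 min, and overlapped all 3 kinds of chromatin region. By contrast, the site at +45.8 kb, from 35650064 to 35650316, was listed at 5, 30 and 60 min (229, 210 and 252 bp) and not at 360 min. The site at +81.5 kb, from 35614271 to 35614684 at 30 min, was 413 bp wide then and 241 bp wide at 360 min. The widest site listed at 60 min alone ran from 35630857 to 35631304 (447 bp) and the widest listed at 360 min alone ran from 35678249 to 35678570 (321 bp).

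The flanks held 4 merged sites. The site at +186 kb, past the end of the gene, was listed at all 4 times, at 300, 270, 281 and 271 bp. Its listed start, 35509835, was identical in the 30, 60 and 360 min lists. Sites at +204 kb (222 and 313 bp) and at -50.4 kb (215 and 182 bp) were listed at 60 and 360 min. Across the 8 sites listed at all 4 times, the largest distance between midpoints in any pair of lists was 8.5 to 68.5 bp, with a median of 25.75 bp. Such distances are kept small by the overlap that joined the sites.

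The next comparison asked in what chromatin, as it stood before hormone, PR was listed after hormone. At 60 min 13 of the 22 sites of the window (59.1%, 36.4 to 79.3%) overlapped H3K4me1 regions, against 48.2% of all 60 min sites. H3K4me3 regions held 3 of the 22 (13.6%, 2.91 to 34.9%), against 5.12%, and RNA polymerase II regions held 4 of the 22 (18.2%, 5.19 to 40.3%), against 8.92%. These 3 intervals of 60 min include the share of the whole list, as do those of 30 and 360 min. At 5 min H3K4me1 regions held 8 of the 11 sites (72.7%, 39.0 to 94.0%), against 51.0% of the 5 min list. H3K4me3 regions held 3 of the 11 (27.3%, 6.02 to 61.0%), against 4.45%, and polymerase regions 4 of the 11 (36.4%, 10.9 to 69.2%), against 9.11%. The 5 min intervals for H3K4me3 and polymerase thus lie above the share of the whole list. However, the window was drawn around a gene, and both kinds of region cover more of it than of the genome. H3K4me3 covered 1.46% of the window against 0.549% of the genome, and polymerase 1.54% against 0.641%. The shares of sites were not adjusted for this. The 9 sites outside H3K4me1 lay 0.531 to 63.5 kb from the nearest such region, with a median of 9.56 kb. Of the sites listed at all 4 times, 6 were in H3K4me1, and those at +126 kb and +186 kb were outside it, 52.2 and 18.2 kb from the nearest region.

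The last comparison used micrococcal nuclease (MNase) sequencing at the 60 min PR sites, from cells given R5020 for 60 min and from unstimulated cells. MNase cuts between nucleosomes, so that reads mark protected, mostly nucleosomal, DNA. The authors' deposited table gives a normalized number of reads per site in R5020-treated and in unstimulated cells, and their ratio as unstimulated over R5020, so that a ratio above 1 means fewer reads with R5020. There was 1 value per condition. Over the 22 sites of the window, the median in the authors' deposited table was 65 reads with R5020 and 96.5 in unstimulated cells, against 75 and 97 over all 24436 sites. The median ratio in the authors' deposited table was 1.52 in the window and 1.29 over all sites. A single scaling factor between the conditions would move all ratios together, so the text below sets each ratio against 1.29. Divided by the medians over the table, the window's ratio was 1.18. Computed per 100 bp from the authors' deposited table, the R5020 median was 24.1 reads in the window and 23.1 over all sites, and the unstimulated median 33.4 and 30.3.

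The authors' deposited table put the ratio above 1 at 19 of the 22 sites, against 78.0% of all sites, and above 2 at 6 of the 22, against 13.0%. By the authors' deposited table, the 6 sites above 2 were all in the promoter block. Of these 6, 3 lay in polymerase regions, and 2 of those 3 also in H3K4me3 regions. Over all 60 min sites the authors' deposited table gave a median ratio of 2.03 in polymerase regions and 1.97 in H3K4me3 regions. The other 3 lay in H3K4me1 regions without either. Of such sites, the authors' deposited table put 3 of 9 in the window and 1500 of 9517 over the genome above 2. The 13 sites in H3K4me1 regions had ratios of 1.3 to 8.67 (median 1.82) in the authors' deposited table, and all were above 1.29. The 9 sites outside H3K4me1 had ratios of 0.79 to 1.68 (median 1.11) in the authors' deposited table, and 3 of the 9 were above 1.29. Over all 60 min sites, 7875 of 11789 in H3K4me1 and 4312 of 12647 outside it were above 1.29 in the authors' deposited table. The 3 of 9 is thus near the share over all sites outside H3K4me1. The ranges thus overlap between 1.3 and 1.68. From the authors' deposited table, the median inside H3K4me1 was 1.64 times that outside in the window and 1.3 times over the genome. Sites are not replicates of a condition, and this difference was not tested. Some sites in H3K4me1 also lay in H3K4me3 or polymerase regions. Without these, the median in H3K4me1 from the authors' deposited table was 1.66 in the window (9 sites) and 1.42 over the genome (9517 sites). With them it was 1.82 and 1.5. In H3K4me1 the medians per 100 bp from the authors' deposited table were 17.3 reads with R5020 and 33.4 without, and outside it 25.7 and 33.5. Over all 60 min sites the authors' deposited table gave another order: 24.4 reads per 100 bp with R5020 and 36.1 without inside H3K4me1, and 21.9 and 25.2 outside it. The density with R5020 was thus lower inside H3K4me1 than outside in the window and higher over the table.

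**Figure D4:**
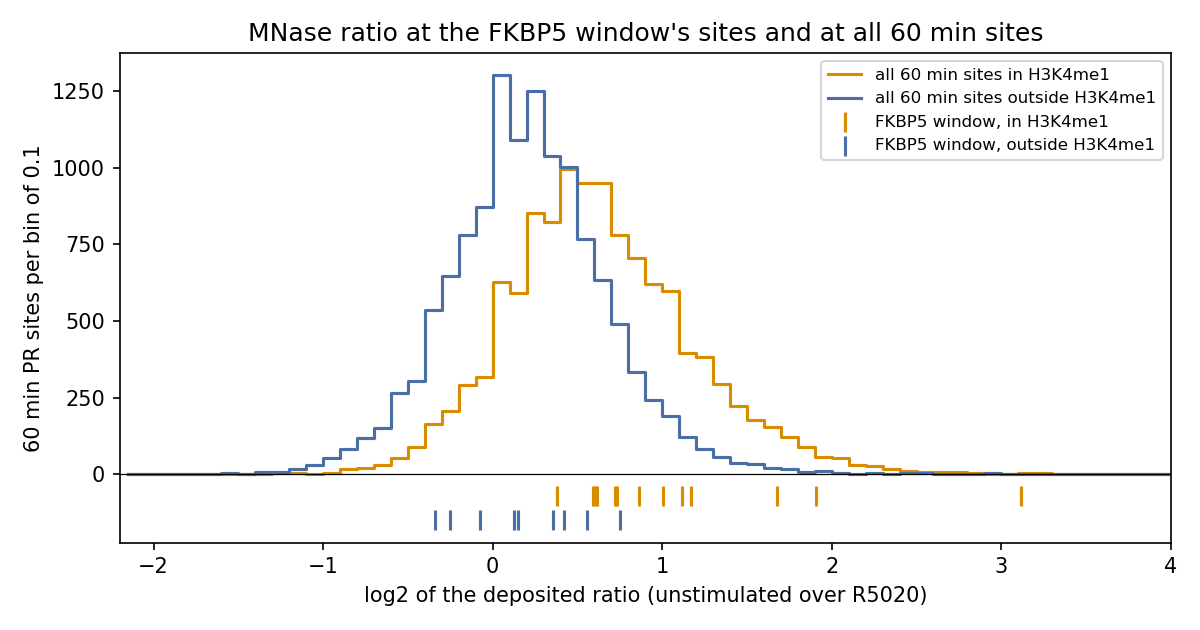
Distribution of the log2 of the deposited MNase ratio, unstimulated over R5020, for all 60 min PR sites in and outside H3K4me1 regions (lines, sites per bin of 0.1), with the 22 sites of the FKBP5 window as ticks below. The ticks of sites in H3K4me1 start at a ratio of 1.3 and reach 8.67. Those outside run from 0.79 to 1.68.

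The largest ratio belonged to the site from 35699701 to 35699920, on the H3K4me3 stretch upstream of position 35696000. The authors' deposited table gave it 3 reads with R5020 and 26 in unstimulated cells, a ratio of 8.67 that ranked 9 among 24433 sites. Both numbers were low: of the sites in the authors' deposited table, 0.0286% have as few reads with R5020 and 1.33% as few in unstimulated cells. A change of a few reads would move this ratio widely. The upstream promoter site, from 35695742 to 35696052, had a ratio of 3.2, from 15 reads with R5020 and 48 in unstimulated cells by the authors' deposited table. As few R5020 reads were given for 0.888% of its sites. Computed from the authors' deposited table, the promoter site had per 100 bp 4.84 reads with R5020 and 15.5 without, and the site upstream of it 1.37 and 11.9. These were the lowest values of the window in each condition.

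Between these low points and the inner edge of the block, read numbers were higher. The narrow site from 35693908 to 35694068 had 28 reads with R5020 and 105 without hormone in the authors' deposited table, a ratio of 3.75 that 1.1% of sites reach. Its density with R5020 was 17.5 reads per 100 bp by the authors' deposited table, near the 16.2 and 15.4 of its neighbours, while its unstimulated density of 65.6 was the highest of the window. The adjacent site from 35693441 to 35693861 had 68 and 137 reads in the authors' deposited table, and the site from 35694573 to 35695001 had 66 and 143. These gave ratios of 2.01 and 2.17. In the authors' deposited table the inner sites from 35690227 and from 35691340 had 59 and 54 reads with R5020 and 98 and 89 in unstimulated cells, with ratios of 1.66 and 1.65.

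Upstream in the block the ratios differed from site to site. The authors' deposited table gave the site from 35697605 to 35697890 69 reads with R5020 and 104 in unstimulated cells, and the site from 35698827 to 35699119 83 and 108, with ratios of 1.51 and 1.3. The last was the lowest ratio of the block, 582 bp from the site with the highest. In the authors' deposited table the outermost sites had 38 and 69 reads (35701603 to 35701823) and 60 and 135 reads (35703137 to 35703500), with ratios of 1.82 and 2.25. These are the sites that PR lists held only at 60 and 360 min.

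The remaining members in H3K4me1 were the downstream start, with 130 reads with R5020, 198 without and a ratio of 1.52 in the authors' deposited table, and the site at -50.4 kb, with 58 and 89 reads and a ratio of 1.53. By the authors' deposited table the downstream start, with H3K4me3 and polymerase listed like the upstream promoter site, had 25.3 reads per 100 bp with R5020 and 38.6 without. Both densities were above those of the upstream promoter site, 4.84 and 15.5.

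Outside H3K4me1, the authors' deposited table gave no ratio above 1.68. The site from 35607863 to 35608368, the widest of the window at 360 min, had 185 reads with R5020 and 202 without in the authors' deposited table, a ratio of 1.09, and 36.6 and 40.0 reads per 100 bp. Its R5020 density was the highest of the window. More reads with R5020 than without were given for 3 sites in the authors' deposited table: from 35555064 to 35555295 (71 with R5020 and 56 without, ratio 0.79), from 35650064 to 35650316 (61 and 51, ratio 0.84) and from 35612179 to 35612597 (100 and 95, ratio 0.95). All 3 lie inside the gene and away from H3K4me1 regions.

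The sites listed at all 4 times outside H3K4me1 were close to the median of the table. In the authors' deposited table the site at +126 kb had 65 reads with R5020 and 83 in unstimulated cells (ratio 1.28), and the site at +186 kb had 70 and 94 (ratio 1.34). The 6 within H3K4me1 had a median ratio of 2.09 from the authors' deposited table. The other sites outside H3K4me1 were at +204 kb, with 65 and 72 reads (ratio 1.11), at +64.9 kb, with 115 and 169 reads (ratio 1.47), and at +12.6 kb, with 65 and 109 reads in the authors' deposited table (ratio 1.68). The last lay 0.531 kb from an H3K4me1 region and the site at +204 kb 0.591 kb from another.

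**Figure D5:**
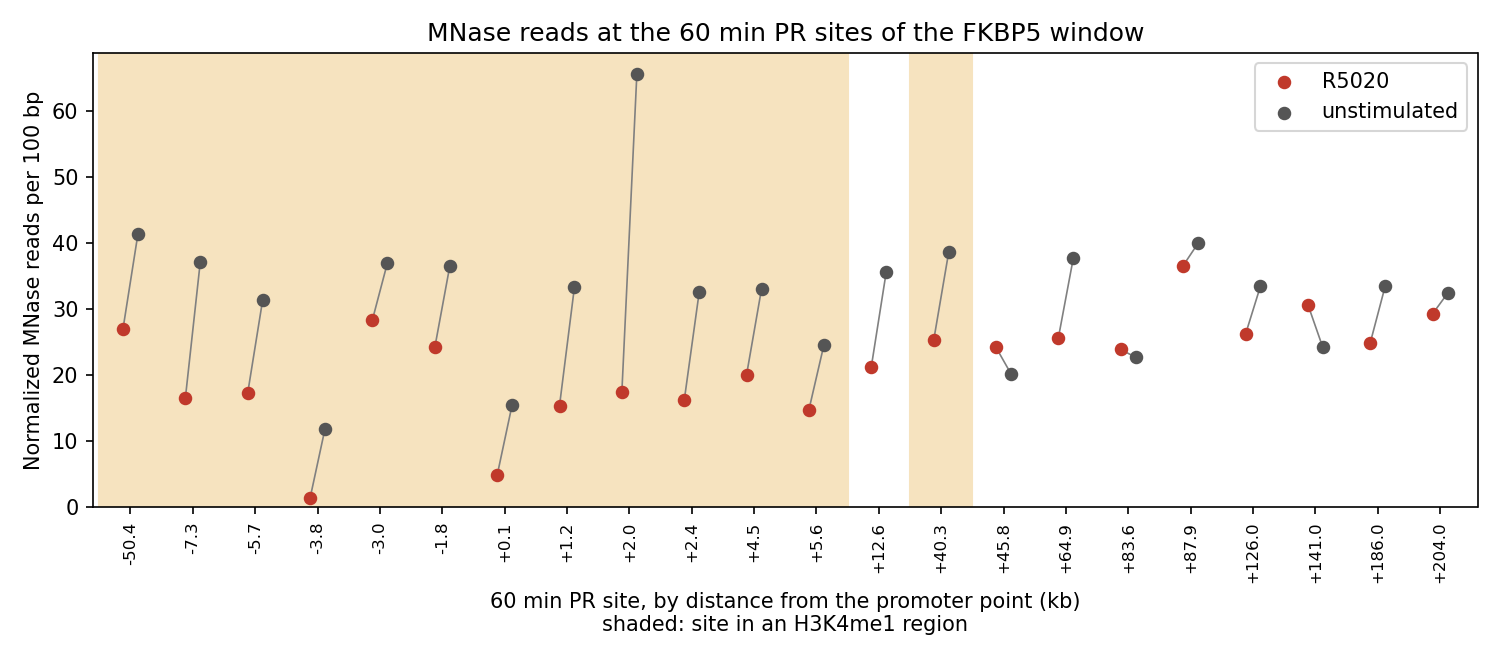
Normalized MNase reads per 100 bp (y axis) at the 22 PR sites of 60 min, ordered by distance from position 35696000 (x axis, upstream to the left), with R5020 in red and unstimulated cells in grey, 1 value each. Shading marks sites in H3K4me1 regions. R5020 lies below unstimulated at all 13 shaded sites and at 6 of the 9 others, and the sites at -3.8 kb and +0.1 kb are lowest in both conditions.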

How the data were processed

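Each of the 8 samples had a list of regions (chromosome, start, end), in hg19 coordinates per the submitters' processing notes. The aligner, peak caller and thresholds were not given in the sources used here, nor was depth, so absence from a list does not show absence of binding. The MNase values are the authors' deposited normalized read numbers, whole numbers handled as a score, and the ratio is the authors' deposited one, unstimulated over R5020. The MNase libraries are not among the 8 samples. Sites were called shared at an overlap of 1 bp, coordinates were kept as listed, and shares carry exact Clopper-Pearson intervals. Genome length was the sum of the last listed base per chromosome. Promoter sequences came from RefSeq (GRCh38.p14). The planned search for motifs in PR sites, and the planned count at other chaperone genes, were not run because no hg19 genome or annotation was used. Every PR site of the window listed at 2 or more times, every H3K4me3 and polymerase region, the 5 widest H3K4me1 regions and the widest site of each single-time class were to be named. Members and lists were chosen with earlier results of these data known. Interval overlaps were checked on simulated data. Python 3.11.15, NumPy 2.4.6, pandas 2.3.3, SciPy 1.17.1 and Matplotlib 3.10.9 were used.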

Additional observations from a re-analysis of the deposited data

How the results depend on the processing

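Of 38 alternatives, 27 left the result within its interval or within 1.5 times its count and 11 moved it. A reversal could be recorded only for the median ratio in H3K4me1 over that outside, and none was. The 0 min count was 0 at every setting, and these settings are among the 27. With only the wider 50% of each list, the sites of the window numbered 6 at 5 min, 10 at 30 min, 8 at 60 min and 13 at 360 min, 3 merged sites were in all 4 lists with hormone, and the promoter block held 4 of the 60 min sites (this last alternative was chosen after seeing the data). Here fewer sites were taken by construction. The window's count at 60 min also fell below that at 30 min, whereas with the whole lists it was higher (22 against 16). The gene alone, without flanks, held 14 sites at 60 min and 16 at 360 min. Dividing both MNase columns by their medians over the table gave a median ratio of 1.18 for the window, because the table's own median was divided out. All 60 min sites, in or outside H3K4me1, divided by the length of H3K4me1 region gave 4.82 times the genome's value, and the sites in H3K4me1 alone gave 5.9 times (chosen after seeing the data). In further alternatives chosen after seeing the data, the median ratio in H3K4me1 over that outside was 1.5 without sites under 50 unstimulated reads. It was 1.57 without the site with the highest ratio and 1.37 without the promoter block. Without the block, only the downstream start (ratio 1.52) and the site at -50.4 kb (1.53) remained in H3K4me1, so the value 1.37 rests on very few sites. No paired analysis was possible because each group holds 1 sample. The unknown depth of each list limits every statement that a site was not listed, and the low read numbers limit the highest ratios.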

Other observations

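At 2 places in FKBP5, PR was listed at neighbouring positions at different times. The site from 35654308 to 35654584 was listed at 30 and 360 min (261 and 260 bp wide), and 841 bp further the site over the downstream start was listed at 5 and 60 min. Similarly, the site from 35612179 to 35612597 was listed at 60 min alone, and 1674 bp further a site was listed at 30 and 360 min. Sites listed at 30 and 360 min only make up 2.61% of merged sites of the genome and those at 5 and 60 min only 1.17%. Whether the libraries' depths or thresholds set this alternation was not tested, as no read values are given for the PR lists.

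Most H3K4me1 regions of the window had no PR site at any time. PR was listed on 4 of the 13 regions, and 9 (69.2%) had none, against 82.1% of all 73263 H3K4me1 regions. Those without PR include the regions from 35721018 to 35727054 and from 35730983 to 35734134, upstream of the promoter block, and those from 35684098 to 35686128 and from 35686204 to 35688939, next to it on the downstream side. The H3K4me1 region from 35642672 to 35643814 had 1 site, at 360 min alone.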
